A study of Mus musculus with 16 samples.

Results

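The comparison is the one between untreated genotypes, *Notch2*tm1.1Ecan against control chondrocyte-enriched cells with vehicle, and its members are the 8 of 16 RNA-Seq libraries with PBS in place of tumor necrosis factor α (TNFα), 4 per genotype. The labels call the genotypes Notch2 mutant and Wild type, and the libraries were assigned by these labels. The cells were released from epiphyses of heterozygous *Notch2*tm1.1Ecan mice, 3 to 4 days of age, and of control littermates in a C57BL/6 background. They were cultured from pooled male and female pups, and RNA was taken after 6 h with vehicle. The allele places a premature stop codon in *Notch2*, so that the receptor loses its PEST domain in every cell of the animal, and the counts of its wild type and mutant transcripts are not separated. The other 8 libraries, from cells of the same genotypes given 50 ng/ml of TNFα for the same 6 h, were used to ask whether the genotype difference recurred or was unequal with TNFα, and as a scale for transcripts induced by TNFα. The labels give serum removal for the TNFα groups only, whereas the study's text gives it for vehicle as well, and this does not divide the genotypes compared. The labels name the replicates as biological but do not say which litter or culture each came from, so that p values measure the spread between these libraries.

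Notch receptors are cleaved after they bind a Jagged or Delta-like ligand on a neighboring cell, and the released intracellular domain joins RBPJ and Mastermind-like proteins on DNA to induce genes such as those of the *Hes* and *Hey* families. The PEST domain marks the intracellular domain for degradation, so a receptor without it persists longer. In cartilage, Notch is known to restrain chondrogenic differentiation, and in vessel walls the receptor NOTCH3 and the target HEYL are known from smooth muscle cells and pericytes.

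Libraries held 13471143 to 18677402 counts on genes in control and 14781440 to 44237300 in *Notch2*tm1.1Ecan cells. Levels are given as CPM, counts scaled to a common library size with TMM over the 8 libraries, and they are not per transcript length, so that they compare libraries and not genes. The label of the cells was checked against chondrocyte markers, and *Col2a1*, which encodes the chain of type II collagen, had 38181, 36983, 37189 and 34808 CPM in control and 26205, 22045, 21964 and 23382 CPM in *Notch2*tm1.1Ecan libraries. *Acan*, *Comp* and *Sox9* were present in every library, and so were *Col1a1* and *Col3a1*, the fibrillar collagens of fibroblasts and perichondrium. Whether the latter came from other cells or from the cultured chondrocytes was not tested. Control replicate 4 stood apart from its group. It carried transcripts known to be induced by TNFα: *Icam1*, an adhesion molecule, had 33.4, 38.6, 39.7 and 431 CPM in control and 29.5, 26.4, 26.8 and 27.8 CPM in *Notch2*tm1.1Ecan libraries. Of 30 genes tested in a list of NF-κB and TNF response genes, 28 were highest in control replicate 4 among the 8 libraries, and 19 were more than 2-fold above the next library. For the 27 genes of the list that were at least 2-fold higher in TNFα than in vehicle control replicates 1 to 3, its level lay at a median of 15% of the way from vehicle to TNFα (range 11.1 to 26.2%), and that of the TNFα-treated control replicate 4 at 83.8% (range 70.1 to 101.0%). Counts of list members that passed are therefore also given without control replicate 4 where they differed.

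Tests were made with edgeR's quasi-likelihood method over 19432 genes, and p values were adjusted by the Benjamini-Hochberg procedure over all of them. To be past the threshold, a gene needed an adjusted p below 0.05 and a difference of 1 or more in size on the log2 scale, and fold changes are *Notch2*tm1.1Ecan over control. This held for 244 genes (1.26%), of which 186 (0.957%) were higher and 58 (0.298%) were lower in *Notch2*tm1.1Ecan cells. The adjusted p alone was under 0.05 for 2048 genes (10.5%), 1203 higher (6.19%) and 845 lower (4.35%), and their median change in size was 0.40 on the log2 scale. In the plot of all genes tested, most of the 244 genes lie at low levels: 63 of those higher and 14 of those lower reached 5 CPM in the group where they were higher. A total of 24 of the 186 had no more than 3 counts in every control library and 7 of the 58 had no more than 3 counts in every *Notch2*tm1.1Ecan library, and the folds of these genes depend on the prior count. Over all genes, the 4 *Notch2*tm1.1Ecan libraries were above all 4 control libraries in 9.04% and below them in 7.19%. Below, a gene is said to have risen or fallen when its adjusted p was under 0.05. Counts of list members are to be read beside the shares of all genes, 6.19% that rose and 4.35% that fell.

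**Figure D1:**
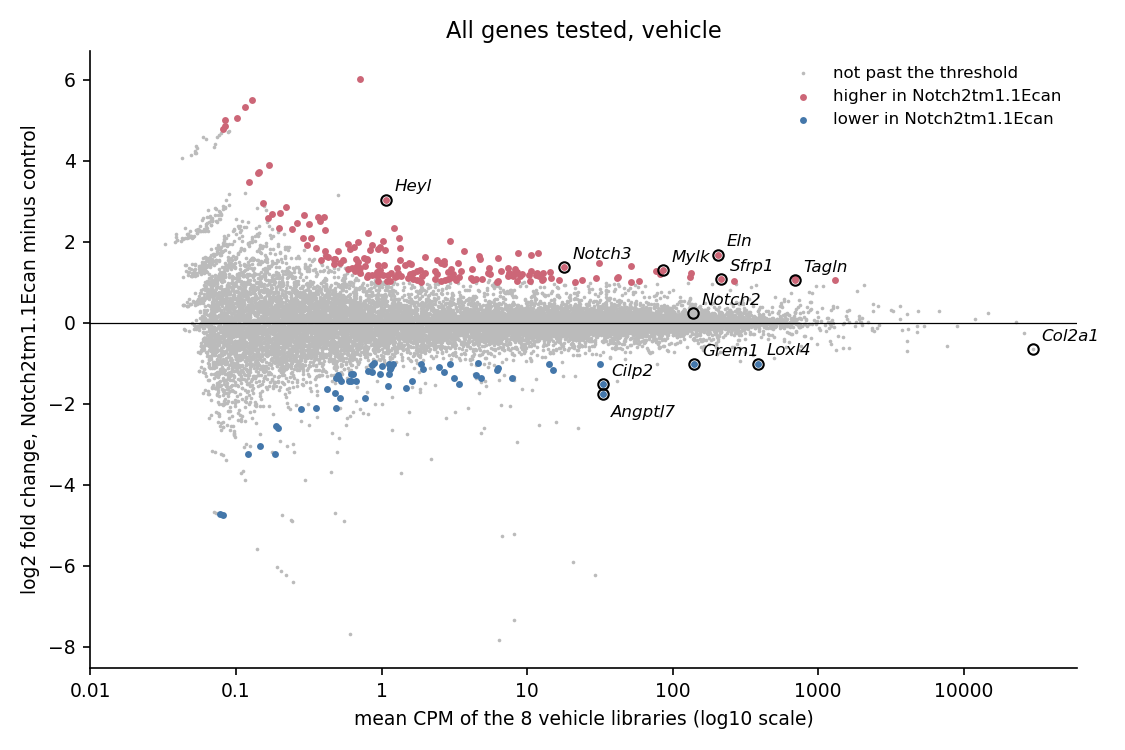
Each point is 1 of 19432 genes, with the mean CPM of the 8 vehicle libraries on a log10 scale against the log2 fold change of *Notch2*tm1.1Ecan over control. The 186 genes past the threshold that were higher are red and the 58 that were lower are blue, and the unfilled rings mark genes named in the text, with *Heyl* at 3.04, *Eln* at 1.68 and *Angptl7* at -1.75.

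*Notch2* itself (chromosome 3, 97920800-98057677 in GRCm39) had 126, 133, 102 and 149 CPM in control replicates 1 to 4 and 135, 159, 142 and 161 CPM in *Notch2*tm1.1Ecan replicates 1 to 4. The groups overlapped, and the difference was not detectable beyond the spread between libraries (log2 fold change 0.23 ± 0.11 (SE), adjusted p = 0.283). The call depends on the fit. With no filter beyond 1 count, the adjusted p was 0.0043, and with filterByExpr 0.212. It was 0.0982 without control replicate 4, at a log2 fold change of 0.31, and with DESeq2 it was 0.119 over all 8 libraries and 0.00822 without control replicate 4. The allele acts on the protein, so the transcript level does not check the genotype labels. Around the locus, 351 genes within 10 Mb on either side were tested, and 4 (1.14%) were past the threshold, near the 1.26% of all genes.

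Other members of the pathway differed. *Notch3* (chromosome 17, 32339794-32385893), a receptor of mural cells, had 10.4, 9.53, 9.16 and 11.1 CPM in control replicates 1 to 4 and 26.3, 27, 23.3 and 27.3 CPM in *Notch2*tm1.1Ecan replicates 1 to 4. All 4 *Notch2*tm1.1Ecan libraries were above every control library (log2 fold change 1.37 ± 0.088 (SE), adjusted p = 1.43e-10). *Notch1*, the receptor most studied in cartilage, was at 39 ± 3.22 CPM in control and 53.5 ± 3.15 CPM in *Notch2*tm1.1Ecan libraries (SD, n = 4 each), and the groups did not overlap either (log2 fold change 0.46 ± 0.067 (SE), adjusted p = 3.63e-05). Among ligands, *Jag1* had 24, 26.4, 25 and 30.8 CPM in control and 43.2, 49.1, 48.4 and 42.6 CPM in *Notch2*tm1.1Ecan libraries. It rose in *Notch2*tm1.1Ecan cells by less than the cutoff on the fold (log2 fold change 0.79 ± 0.078 (SE), adjusted p = 1.66e-07). The receptor *Notch4* and the ligands *Jag2* and *Dll1* were at or under 1.35 CPM on average in both groups, and their differences did not pass (adjusted p from 0.62 to 0.991). Of 7 receptors and ligands tested, 3 rose and none fell, with a median log2 fold change of 0.23 where that of all genes was -0.00. *Dll3* and *Dll4* were under the minimum of 10 counts. When control replicate 4 was left out, the count was again 3 and the median 0.39.

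Of the Notch target genes, *Heyl* (chromosome 4, 123127349-123143682) had 0.215, 0.149, 0.253 and 0.292 CPM in control replicates 1 to 4 and 1.77, 1.41, 2.24 and 2.23 CPM in *Notch2*tm1.1Ecan replicates 1 to 4. The 2 groups were far apart at a low level (log2 fold change 3.04 ± 0.33 (SE), adjusted p = 6.25e-07). *Hes1*, the transcriptional repressor through which Notch is best known, had 16.7, 12.9, 19.3 and 13.6 CPM in control and 25.1, 25.3, 22.4 and 23.1 CPM in *Notch2*tm1.1Ecan libraries. It rose (log2 fold change 0.61 ± 0.10 (SE), adjusted p = 0.000405), and *Hey1*, another such repressor, was at 4.8 ± 0.616 CPM in control and 7.23 ± 0.996 CPM in *Notch2*tm1.1Ecan libraries (SD, n = 4 each) and rose (log2 fold change 0.59 ± 0.14 (SE), adjusted p = 0.00727). *Hey2* was 1.13 on the log2 scale with an adjusted p of 0.111, and *Nrarp*, an inhibitor that Notch induces, 2.50 with 0.0694; neither passed. *Hes7* and *Dtx1* did not pass (adjusted p = 0.819 and 0.734), and *Hes5* had no count in any library. In all, 3 of 7 targets tested rose and none fell, and their median log2 fold change was 0.70, or 0.61 with genes under 3 counts in a group at their bound. Without control replicate 4, 3 again rose, and the median was 0.53. For these low genes the depth limits what can be seen.

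The machinery of the pathway was mostly without a detectable change. Of 20 cofactors and processing enzymes, which include the ADAM proteases, γ-secretase and Mastermind-like genes, 17 did not pass. The others were 2 that rose and 1 that fell, where 6.19% of all genes rose and 4.35% fell. *Lfng*, a glycosyltransferase that modifies Notch receptors, had 12, 10.9, 12.4 and 9.83 CPM in control and 23, 20.4, 21.8 and 18.7 CPM in *Notch2*tm1.1Ecan libraries and rose (log2 fold change 0.89 ± 0.10 (SE), adjusted p = 5.14e-07). *Maml2*, a coactivator of the intracellular domain, also rose (log2 fold change 0.46 ± 0.07 (SE), adjusted p = 4.95e-05), and *Rbpj*, the DNA-binding partner, fell (log2 fold change -0.27 ± 0.059 (SE), adjusted p = 0.00261). *Rbpj* was 148 CPM in *Notch2*tm1.1Ecan replicate 1 and 163 CPM in each of the other 3.

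**Figure D2:**
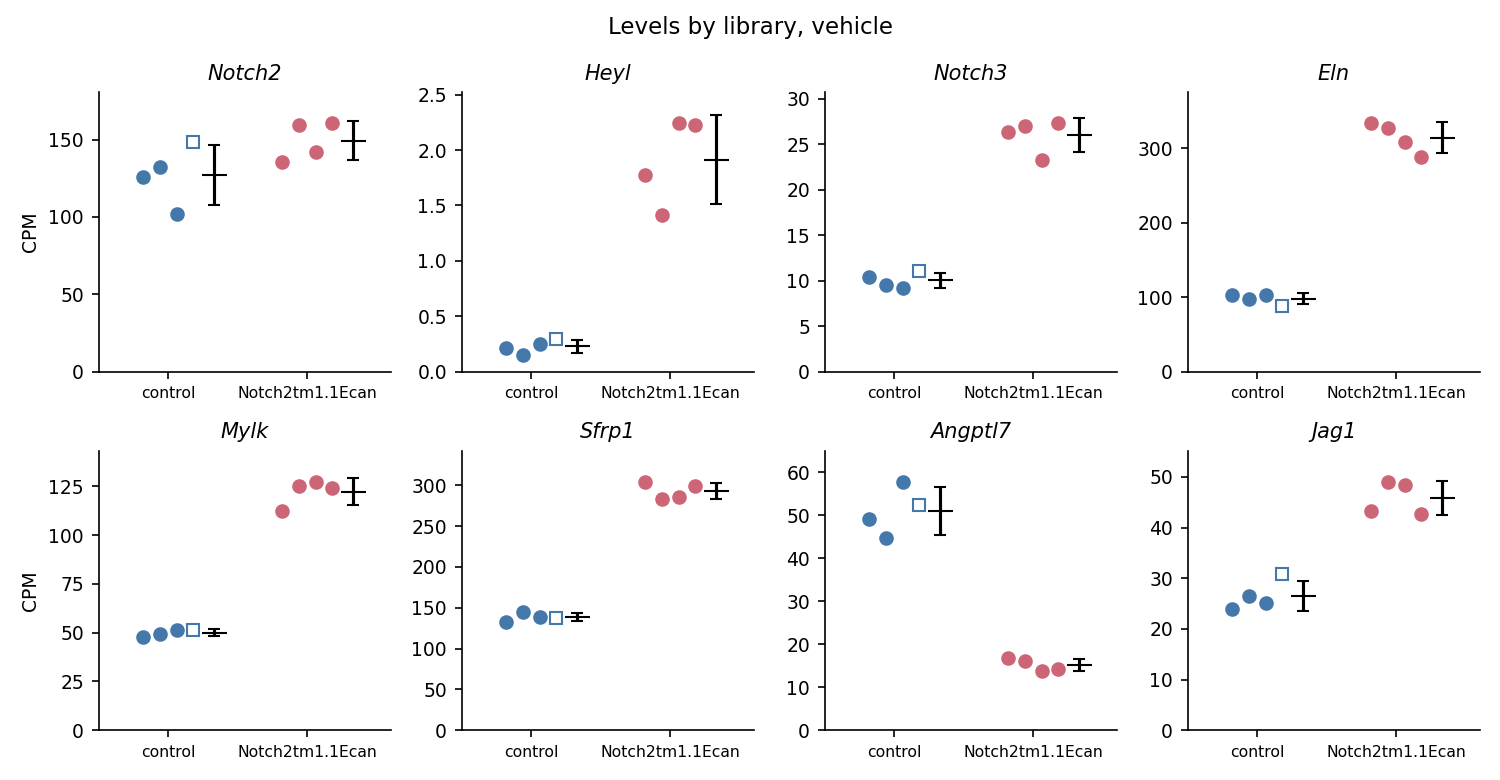
Levels in CPM of 8 genes in control and *Notch2*tm1.1Ecan vehicle libraries, each point a library, with the mean and SD of the 4 libraries beside them, and control replicate 4 as an open square. The groups overlap for *Notch2* and are apart for the other 7 genes, with *Angptl7* the 1 that is lower in *Notch2*tm1.1Ecan cells.

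The windows of 250 bases before the annotated start are shown for 5 genes described here, the receptor *Notch3*, 3 contractile genes that rose together and *Angptl7*, which fell, so that the letters can be read beside the levels. They are from RefSeq on GRCm38.p6, 5′ to 3′ on the strand of the gene, in lower case. Capitals mark TGGGAA, the core to which RBPJ binds, on either strand. They also mark the CArG box, to which serum response factor binds, in its strict form CCWWWWWWGG, where W is A or T. Forms with another base inside were not searched and stay in lower case, such as ccctatatgg in the window of *Acta2*. The table holds no window for *Heyl*, *Eln*, *Sfrp1*, *Hes1* or *Hey1*. The windows of *Notch3* (chr17:32166891-32167140, minus strand), *Mylk* (chr16:34784700-34784949, plus strand) and *Angptl7* (chr4:148500463-148500712, minus strand) hold neither motif. Whether the window of *Mylk* lies at the first start of this long gene or at an internal one was not checked. That of *Acta2* (chr19:34255374-34255623, minus strand) holds TGGGAA starting 27 bases before the start, and that of *Myl9* (chr2:156775214-156775463, plus strand) holds a CArG box starting 161 bases before it.
Notch3: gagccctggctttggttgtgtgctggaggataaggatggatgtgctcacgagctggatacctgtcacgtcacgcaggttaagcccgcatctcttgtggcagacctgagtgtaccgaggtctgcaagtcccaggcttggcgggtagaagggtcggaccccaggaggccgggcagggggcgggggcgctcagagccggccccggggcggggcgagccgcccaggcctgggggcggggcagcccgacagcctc
Mylk: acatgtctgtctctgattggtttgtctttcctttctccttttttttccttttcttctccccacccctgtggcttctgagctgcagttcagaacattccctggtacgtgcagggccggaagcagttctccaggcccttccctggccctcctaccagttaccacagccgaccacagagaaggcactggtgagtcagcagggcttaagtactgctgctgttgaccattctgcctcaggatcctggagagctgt
Acta2: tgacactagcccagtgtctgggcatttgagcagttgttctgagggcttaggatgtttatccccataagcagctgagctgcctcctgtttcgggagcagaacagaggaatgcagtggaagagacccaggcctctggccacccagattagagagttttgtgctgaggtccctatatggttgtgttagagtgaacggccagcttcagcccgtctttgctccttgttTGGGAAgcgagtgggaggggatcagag
Myl9: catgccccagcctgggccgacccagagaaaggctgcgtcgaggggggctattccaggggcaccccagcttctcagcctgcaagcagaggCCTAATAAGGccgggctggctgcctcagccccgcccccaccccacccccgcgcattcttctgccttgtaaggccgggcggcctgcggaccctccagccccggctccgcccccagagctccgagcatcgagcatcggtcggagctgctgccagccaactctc
Angptl7: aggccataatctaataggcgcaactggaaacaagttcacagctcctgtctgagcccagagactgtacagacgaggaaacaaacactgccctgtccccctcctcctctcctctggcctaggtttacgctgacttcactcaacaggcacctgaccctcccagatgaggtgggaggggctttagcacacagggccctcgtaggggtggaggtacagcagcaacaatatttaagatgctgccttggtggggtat
TGGGAA was found in 21.6% of all 32851 windows of the table, in 24.1% of 145 windows of genes past the threshold that were higher and in 32.6% of 43 windows of those that were lower. A CArG box of the strict form was found in 1.47% of all windows and in 1.25% of windows of genes tested. It was in 2 of 16 windows of the contractile genes (12.5%) and in 5 of 145 windows of the higher genes (3.45%). These are counts of letters in a short window and say nothing of binding.

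Genes of the contractile apparatus of smooth muscle rose. *Mylk* (chromosome 16, 34565580-34822790), the kinase that phosphorylates myosin light chain, had 47.9, 49.2, 51.4 and 51.6 CPM in control replicates 1 to 4 and 112, 125, 127 and 124 CPM in *Notch2*tm1.1Ecan replicates 1 to 4. No *Notch2*tm1.1Ecan library came near the control level (log2 fold change 1.29 ± 0.057 (SE), adjusted p = 8.92e-13). *Myl9*, the light chain that MYLK phosphorylates, had 178, 179, 178 and 157 CPM in control and 409.5, 348, 333 and 329.7 CPM in *Notch2*tm1.1Ecan libraries. *Tagln*, an actin-binding protein of smooth muscle, had 450.0, 464, 452 and 432 CPM in control and 1037, 926, 906 and 836 CPM in *Notch2*tm1.1Ecan libraries, and both rose about as far (1.04, adjusted p = 2.77e-09 for *Myl9* and 1.04, adjusted p = 1.26e-11 for *Tagln*). *Lmod1*, which nucleates actin filaments in smooth muscle, was at 26.3 ± 2.18 CPM in control and 57.3 ± 4.92 CPM in *Notch2*tm1.1Ecan libraries (SD, n = 4 each) (log2 fold change 1.12 ± 0.074 (SE), adjusted p = 1.98e-10). *Acta2*, smooth muscle actin, had 1414, 1493, 1446 and 1258 CPM in control and 2958, 2613, 2683 and 2522 CPM in *Notch2*tm1.1Ecan libraries. Its change stayed just under the cutoff (log2 fold change 0.94 ± 0.058 (SE), adjusted p = 1.25e-10). Of 17 contractile genes tested, 11 rose (6 of them past the threshold, with *Myh11* at 1.04 and *Cnn1* at 1.01), none fell, and the median log2 fold change was 0.94. *Srf*, the factor that drives contractile genes, rose by 0.28, adjusted p = 0.00141, and its coactivator gene *Myocd* was at 0.95, adjusted p = 0.0587. *Smtn*, *Cald1*, *Synpo2*, *Pgm5* and *Hspb6* did not pass either. Without control replicate 4, 11 again rose and 5 were past the threshold, since *Myl9* went to 0.98. The summed level of the list was 4985.7 to 5293 CPM in control and 7461 to 8498 CPM in *Notch2*tm1.1Ecan libraries. In bulk libraries, more cells of a type and more RNA per cell cannot be told apart.

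Mural cells, the pericytes and smooth muscle cells of vessels, share many of these genes. Of 9 mural cell genes tested, 5 rose and none fell: *Notch3*, which is also counted among the receptors, *Pdgfrb*, the pericyte receptor for platelet-derived growth factor (0.38, adjusted p = 3.01e-06), the potassium channel subunit *Abcc9* (0.91, adjusted p = 0.0233), the intermediate filament gene *Des* (0.87, adjusted p = 0.00154) and the adhesion molecule *Mcam* (0.48, adjusted p = 0.00337). *Rgs5*, a defining pericyte gene, was at -0.25, adjusted p = 0.431, *Cspg4* at -0.19, adjusted p = 0.077, and *Higd1b* had no count in any library. With libraries left out 1 at a time, *Abcc9* did not pass without control replicate 2 or 3 or *Notch2*tm1.1Ecan replicate 1 or 4 (adjusted p up to 0.092). Leaving out control replicate 4, 5 rose and 1 fell, *Ndufa4l2* (-0.30, adjusted p = 0.00104). The sum of the list ran from 783 to 853 CPM in control and from 879 to 969 CPM in *Notch2*tm1.1Ecan libraries, and its part in the change of the contractile genes was not tested.

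The elastic fiber gene with the largest rise of its list was *Eln* (chromosome 5, 134731445-134776322), which encodes tropoelastin and had 103, 97.7, 103 and 88.5 CPM in control replicates 1 to 4 and 334, 326, 308 and 288 CPM in *Notch2*tm1.1Ecan replicates 1 to 4. The lowest *Notch2*tm1.1Ecan library lay far above the highest control library (log2 fold change 1.68 ± 0.06 (SE), adjusted p = 1.85e-14). The microfibril-associated genes rose with it. *Mfap5* had 52.2, 47.8, 54.6 and 44.1 CPM in control and 119, 114, 119.8 and 106 CPM in *Notch2*tm1.1Ecan libraries (1.20, adjusted p = 1.26e-11), and *Mfap4* had 6.33, 4.47, 5.24 and 4.15 CPM in control and 13.4, 11.2, 12.1 and 11.4 CPM in *Notch2*tm1.1Ecan libraries (1.24, adjusted p = 4.06e-07). *Fbn1*, which encodes fibrillin 1, was at 749.9 ± 141 CPM in control and 1403 ± 207 CPM in *Notch2*tm1.1Ecan libraries (SD, n = 4 each) (log2 fold change 0.90 ± 0.17 (SE), adjusted p = 0.0203), and *Fbln2* rose by 0.73, adjusted p = 1.41e-10. The lysyl oxidases, which cross-link elastin and collagen, did not move one way. *Loxl4* had 507, 532, 534 and 494 CPM in control and 267, 254, 249.8 and 258 CPM in *Notch2*tm1.1Ecan libraries. It fell in all 4 *Notch2*tm1.1Ecan libraries (log2 fold change -1.01 ± 0.048 (SE), adjusted p = 1.57e-12), *Loxl2* fell by less (-0.32, adjusted p = 0.000197), and *Lox* (0.29, adjusted p = 0.000845) and *Loxl1* (0.21, adjusted p = 0.0069) rose. Of 22 genes of elastic fibers and lysyl oxidases, 13 rose and 5 fell, the others that fell being *Efemp1*, *Ltbp1* and *Ltbp3*, and the median log2 fold change was 0.23. With control replicate 4 left out, 12 rose and 5 fell.

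Secreted Wnt antagonists moved in both directions. *Sfrp1* (chromosome 8, 23901263-23939648), which binds Wnt proteins outside the cell, had 133, 145, 138 and 138 CPM in control replicates 1 to 4 and 305, 283, 286 and 299 CPM in *Notch2*tm1.1Ecan replicates 1 to 4. The 2 groups were each narrow and did not overlap (log2 fold change 1.08 ± 0.049 (SE), adjusted p = 1.19e-12). *Dkk2*, which blocks the LRP coreceptors, had 10.5, 7.75, 7.83 and 7.49 CPM in control and 18.4, 20.4, 21.4 and 20.2 CPM in *Notch2*tm1.1Ecan libraries (log2 fold change 1.26 ± 0.11 (SE), adjusted p = 1.27e-08), and *Sfrp2* was at 467 ± 19.7 CPM in control and 698 ± 38.5 CPM in *Notch2*tm1.1Ecan libraries (SD, n = 4 each) (log2 fold change 0.58 ± 0.051 (SE), adjusted p = 2.45e-08). *Wif1* (-0.44, adjusted p = 0.0027) and *Frzb* (-0.29, adjusted p = 0.00583), the latter a frizzled-related protein, fell. In all, 3 of 11 antagonists rose and 2 fell, with the other 6, among them *Dkk3* and *Sost*, not passing, and these counts were the same without control replicate 4. Of 12 Wnt ligands tested, *Wnt16* rose (log2 fold change 0.64 ± 0.14 (SE), adjusted p = 0.00215), and *Wnt10a* (log2 fold change -1.61 ± 0.25 (SE), adjusted p = 5.56e-05) and *Wnt10b* (log2 fold change -0.51 ± 0.16 (SE), adjusted p = 0.0383) fell, and *Wnt10b* did not pass without control replicate 2 or 3 or *Notch2*tm1.1Ecan replicate 2, 3 or 4 (adjusted p up to 0.139). *Wnt10a* had 2.63, 2.01, 2.08 and 2.16 CPM in control and 0.751, 0.806, 0.561 and 0.765 CPM in *Notch2*tm1.1Ecan libraries, a low level at which the groups were still apart. *Wnt5a*, at 60.2 ± 3.67 CPM in control and 60.6 ± 2.54 CPM in *Notch2*tm1.1Ecan libraries (SD, n = 4 each), did not pass (0.01, adjusted p = 0.95). The 1 ligand of 12 that rose and the 2 that fell stand beside 6.19% and 4.35% of all genes. *Lgr5*, a receptor that strengthens Wnt signals on binding R-spondin, had 17, 19.4, 14.3 and 15.4 CPM in control and 42.9, 50.2, 45 and 45.7 CPM in *Notch2*tm1.1Ecan libraries (log2 fold change 1.48 ± 0.084 (SE), adjusted p = 2.28e-11).

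*Angptl7* (chromosome 4, 148579639-148584923) had the largest fall among the 10 largest falls taken by the rule for named genes. It encodes a secreted angiopoietin-like glycoprotein, and it had 49.1, 44.6, 57.9 and 52.5 CPM in control replicates 1 to 4 and 16.7, 16.2, 13.8 and 14.2 CPM in *Notch2*tm1.1Ecan replicates 1 to 4. The lowest control library lay well above the highest *Notch2*tm1.1Ecan library (log2 fold change -1.75 ± 0.085 (SE), adjusted p = 3.29e-12). Of 5 angiopoietin-like genes tested, *Angptl6* also fell (log2 fold change -0.45 ± 0.11 (SE), adjusted p = 0.0069), and *Angptl1*, *Angptl2* and *Angptl4* did not pass. The direction of *Angptl4* turned without control replicate 4, from -0.53, adjusted p = 0.689 to 0.32, adjusted p = 0.00722, and the median of the 5 went from -0.45 to -0.13.

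Among bone morphogenetic proteins (BMPs), transforming growth factors β (TGFβ) and their antagonists, 6 of 21 rose and 6 fell, and the median log2 fold change was -0.00. *Tgfb3* had 238, 250.4, 251 and 229 CPM in control and 471, 450.0, 432 and 420.4 CPM in *Notch2*tm1.1Ecan libraries, so that the groups were far apart (log2 fold change 0.87 ± 0.051 (SE), adjusted p = 3.65e-11). *Inhba*, the chain of activin A, rose (0.64, adjusted p = 5.61e-05), as did *Bmp4* (0.33, adjusted p = 0.000405) and the antagonists *Fst* (0.35, adjusted p = 0.000676) and *Fstl1* (0.30, adjusted p = 3.47e-05). *Grem1*, an antagonist of BMPs, had 191, 175, 189 and 190.0 CPM in control and 71.6, 94.8, 95.3 and 106 CPM in *Notch2*tm1.1Ecan libraries. The range in *Notch2*tm1.1Ecan libraries was wide, with replicate 1 lowest, and lay below every control library (log2 fold change -1.02 ± 0.10 (SE), adjusted p = 0.000108). The antagonists *Chrdl2* (-1.27, adjusted p = 0.00612), *Chrdl1* (-0.61, adjusted p = 0.0013) and *Nog* (-0.27, adjusted p = 0.0134) and the ligands *Bmp7* (-0.72, adjusted p = 0.0181) and *Bmp5* (-0.35, adjusted p = 0.018) fell, and *Bmp7* did not pass without control replicate 1 or 4 or *Notch2*tm1.1Ecan replicate 3 or 4 (adjusted p up to 0.0619). With control replicate 4 left out, 6 rose and 5 fell.

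**Figure D3:**
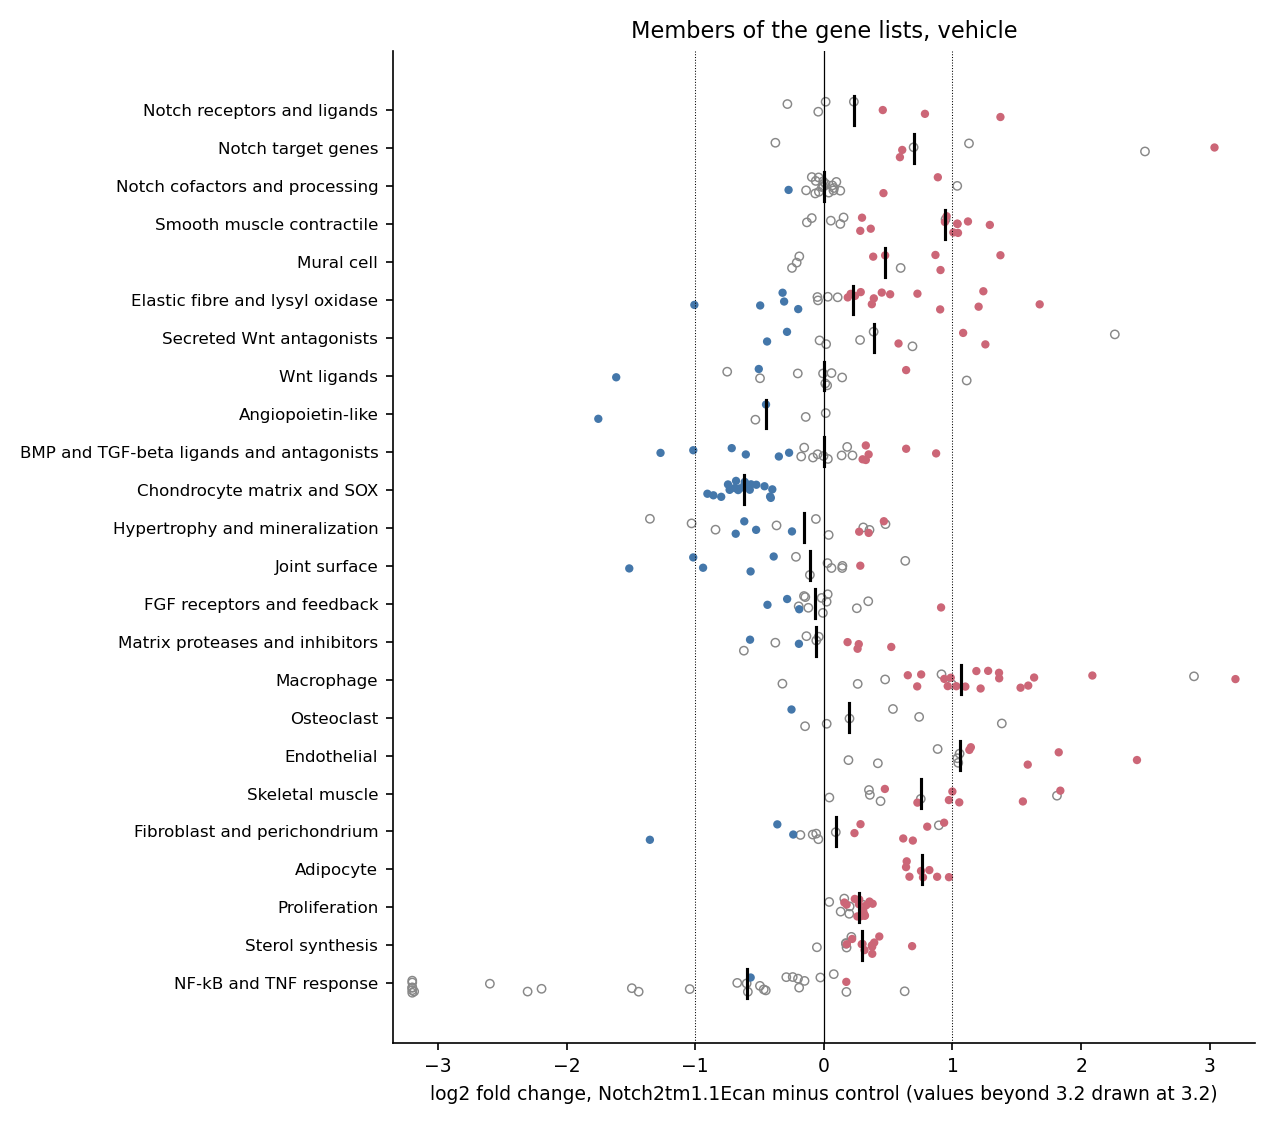
Each point is a gene of the list named at the left, placed by its log2 fold change of *Notch2*tm1.1Ecan over control with vehicle, filled red or blue at an adjusted p under 0.05 and open otherwise, with the median of the list as a black bar and dotted lines at 1 and -1. All 19 chondrocyte matrix and SOX genes lie below 0 and all 8 adipocyte genes above it, and the NF-κB and TNF response list reaches far to the left in open points. Values beyond the range of the axis are drawn at its edge, as for *Cxcl10* with a value of -6.24.

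Genes of the cartilage matrix fell together, none past the cutoff on the fold. All 19 genes of the list fell, where 4.35% of all genes did, and their log2 fold changes ran from -0.91 to -0.40 with a median of -0.62. *Col2a1* was at 36790.3 ± 1421 CPM in control and 23399 ± 1980.2 CPM in *Notch2*tm1.1Ecan libraries (SD, n = 4 each) (log2 fold change -0.65 ± 0.056 (SE), adjusted p = 1.73e-08). *Acan*, the aggregating proteoglycan, had 1698, 1663, 1523 and 1687 CPM in control and 1045, 1019, 954 and 1075 CPM in *Notch2*tm1.1Ecan libraries (log2 fold change -0.68 ± 0.051 (SE), adjusted p = 2.12e-09). *Cnmd*, chondromodulin, a cartilage protein that inhibits vessel growth, had 622, 654, 649.6 and 629.9 CPM in control and 360.3, 351, 352 and 347 CPM in *Notch2*tm1.1Ecan libraries (log2 fold change -0.86 ± 0.046 (SE), adjusted p = 8.67e-12). *Ucma*, a secreted protein of unmineralized cartilage, had 61, 62.9, 65.2 and 56.7 CPM in control and 37.5, 31.6, 33.6 and 29.2 CPM in *Notch2*tm1.1Ecan libraries (log2 fold change -0.91 ± 0.072 (SE), adjusted p = 4.95e-09). *Snorc* (-0.80, adjusted p = 0.00854) overlapped between groups and did not pass without control replicate 1 (adjusted p of 0.0619), and *Epyc*, a small proteoglycan, fell too (-0.75, adjusted p = 0.000621). The transcription factors *Sox9* (-0.42, adjusted p = 3.68e-06), *Sox5* (-0.52, adjusted p = 5.97e-05) and *Sox6* (-0.40, adjusted p = 5.72e-05), which direct chondrogenesis, fell less than most of the matrix genes. The list summed to 51205 to 54300.4 CPM in control and 31954 to 37373 CPM in *Notch2*tm1.1Ecan libraries. Without control replicate 4, 18 of the 19 fell, and *Hapln1*, which was -0.67, adjusted p = 0.0433 with all libraries, was at -0.69 with an adjusted p of 0.0885.

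Markers of hypertrophy and mineralization did not follow one direction. *Spp1*, osteopontin, had 1162, 1096, 1175 and 1226 CPM in control and 821, 762, 809 and 842 CPM in *Notch2*tm1.1Ecan libraries and fell (log2 fold change -0.53 ± 0.05 (SE), adjusted p = 6.78e-08), and *Ibsp* (-0.69, adjusted p = 0.0056), *Panx3* (-0.62, adjusted p = 0.00146) and *Ank* (-0.25, adjusted p = 0.00164) fell as well. *Runx2*, the transcription factor of hypertrophic chondrocytes and osteoblasts, had 32.5, 26.1, 29.8 and 29.1 CPM in control and 40.5, 43.1, 39.6 and 39.4 CPM in *Notch2*tm1.1Ecan libraries. It rose (log2 fold change 0.47 ± 0.071 (SE), adjusted p = 5.62e-05), as did *Alpl* (0.35, adjusted p = 0.0277) and *Pth1r* (0.27, adjusted p = 0.0204). *Col10a1*, the defining collagen of hypertrophic chondrocytes, was at -0.06, adjusted p = 0.6, and *Mmp13* at -1.03, adjusted p = 0.0609. These were 3 that rose and 4 that fell of 16; without control replicate 4, they were 1 and 5, since *Alpl* (adjusted p = 0.0757) and *Pth1r* (adjusted p = 0.0714) no longer passed and *Mmp13* fell (-0.78, adjusted p = 0.02).

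Genes of the joint surface fell where they passed, with 1 exception. *Prg4*, which encodes the lubricant lubricin, had 386, 336, 343 and 456 CPM in control replicates 1 to 4 and 201, 201, 180.2 and 210.4 CPM in *Notch2*tm1.1Ecan replicates 1 to 4. Control replicate 4 was the highest of the 8, and the 4 *Notch2*tm1.1Ecan libraries were below all control libraries (log2 fold change -0.94 ± 0.10 (SE), adjusted p = 0.000114). *Gdf5*, a growth factor of the joint interzone, had 17.1, 18.4, 18.3 and 22.3 CPM in control and 8.46, 9.67, 9.08 and 10.2 CPM in *Notch2*tm1.1Ecan libraries, and its change without control replicate 4 was -0.93 against -1.02 with it. *Cilp2*, a cartilage intermediate layer protein, had 45, 40.4, 41.6 and 68.5 CPM in control and 18.8, 17.4, 14.2 and 18.3 CPM in *Notch2*tm1.1Ecan libraries (log2 fold change -1.51 ± 0.20 (SE), adjusted p = 0.00344), and it was at -1.31 without control replicate 4. *Gdf6* (-0.57, adjusted p = 0.00149) and *Erg* (-0.39, adjusted p = 0.00383) fell, and *Thbs4* rose (0.28, adjusted p = 0.000559). Of 13 genes tested, 1 rose and 5 fell, and 2 rose and 5 fell without control replicate 4, where *Cilp* rose too (0.97, adjusted p = 1.3e-05).

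In fibroblast growth factor (FGF) signaling, the receptors *Fgfr3*, which restrains growth plate chondrocytes (-0.44, adjusted p = 0.00153), *Fgfr2* (-0.29, adjusted p = 0.000162) and the decoy *Fgfrl1* (-0.19, adjusted p = 0.0315) fell, and the feedback inhibitor *Spry1* rose (log2 fold change 0.91 ± 0.11 (SE), adjusted p = 2.27e-06), with 6.07, 6.55, 6.32 and 5.67 CPM in control and 11.7, 11.3, 12.3 and 10.9 CPM in *Notch2*tm1.1Ecan libraries. The other 10 of 14 genes did not pass, and *Fgfrl1* did not pass without control replicate 1, 2 or 3 or *Notch2*tm1.1Ecan replicate 2, 3 or 4 (adjusted p up to 0.121). The fallen genes were 4 without control replicate 4, with *Etv5* added (-0.25, adjusted p = 0.0265). Of 11 matrix proteases and their inhibitors, 4 rose and 2 fell. *Adamts4*, an aggrecanase, was at 0.52, adjusted p = 0.00794, *Adamts1* at 0.26, adjusted p = 0.000752 and *Mmp11* at 0.27, adjusted p = 0.00933, and *Adamts5*, the other aggrecanase, at -0.06, adjusted p = 0.652. *Timp3*, an inhibitor of these enzymes that is held in the matrix, was at 9126 ± 548 CPM in control and 6131 ± 196 CPM in *Notch2*tm1.1Ecan libraries (SD, n = 4 each) and fell (log2 fold change -0.57 ± 0.051 (SE), adjusted p = 2.85e-08). Without control replicate 4, 6 of these 11 rose and 3 fell, and the median went from -0.06 to 0.18. Of those added, *Mmp9* turned from -0.38 to 1.64 (adjusted p = 0.00165) and *Mmp3* from -0.62 to 0.31 (adjusted p = 0.0321).

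Markers of macrophages rose. *Lyz2*, lysozyme, had 38.2, 39.4, 38.9 and 35.7 CPM in control and 75.6, 78.6, 73.9 and 63.7 CPM in *Notch2*tm1.1Ecan libraries (log2 fold change 0.94 ± 0.067 (SE), adjusted p = 9.97e-10). *Csf1r*, the receptor on which macrophages depend, had 6.66, 8.04, 8.15 and 5.91 CPM in control and 14.5, 14.2, 14.4 and 13.7 CPM in *Notch2*tm1.1Ecan libraries (log2 fold change 0.99 ± 0.11 (SE), adjusted p = 9.51e-07). *C1qc*, a chain of the complement component C1q, had 2.95, 3.35, 2.59 and 3.57 CPM in control replicates 1 to 4 and 11.6, 9.87, 7.95 and 8.33 CPM in *Notch2*tm1.1Ecan replicates 1 to 4. All *Notch2*tm1.1Ecan libraries were above the control libraries (log2 fold change 1.59 ± 0.15 (SE), adjusted p = 1.04e-07), and *C1qa* (1.63, adjusted p = 1.63e-07), the adaptor *Tyrobp* (1.53, adjusted p = 3.5e-06) and *Ms4a7* (2.09, adjusted p = 1.53e-05) behaved alike. Of 24 macrophage genes tested, 18 rose (12 past the threshold), none fell, and the median log2 fold change was 1.06, or 0.99 with genes under 3 counts in a group at their bound; 19 rose and 14 were past the threshold without control replicate 4. *Cd14* was at -0.32, adjusted p = 0.395 and *Cx3cr1* at 0.26, adjusted p = 0.884. The list summed to 97.1 to 104 CPM in control and 185 to 220.3 CPM in *Notch2*tm1.1Ecan libraries. Of 7 osteoclast genes tested, *Nfatc1*, the master factor of osteoclasts, fell (-0.26, adjusted p = 0.0164) and none rose, while *Dcstamp* had no count in any library. *Nfatc1* did not pass without control replicate 1 or 3 or *Notch2*tm1.1Ecan replicate 2 or 3 (adjusted p up to 0.0782). The part of macrophages in the other changes was not tested.

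Markers of other cell types are given in the same way, with the range of their summed level. Of 11 endothelial genes, 5 rose and none fell: *Cdh5* (1.83, adjusted p = 0.00467), *Tek* (1.14, adjusted p = 3.9e-07), *Tie1* (1.59, adjusted p = 0.00945), *Pecam1* (1.13, adjusted p = 0.0129) and *Cldn5* (2.43, adjusted p = 0.00702, from at most 2 counts in a control library); the sum was 12.6 to 19.7 CPM in control and 28.7 to 31.9 CPM in *Notch2*tm1.1Ecan libraries. *Pecam1* did not pass without control replicate 1 or *Notch2*tm1.1Ecan replicate 4 (adjusted p up to 0.0995), nor did *Tie1* without *Notch2*tm1.1Ecan replicate 4 (adjusted p of 0.0588). With control replicate 4 left out, 6 endothelial genes rose, with *Flt1* added. Of 13 genes of skeletal muscle, 7 rose and none fell, 3 of them past the threshold (*Actc1* at 1.84, adjusted p = 4.01e-05, *Ttn* at 1.55, adjusted p = 0.0336 and *Myh8* at 1.05, adjusted p = 0.000639), from 25.8 to 33.4 CPM to 45.9 to 51.9 CPM in sum; 9 rose and 6 were past the threshold without control replicate 4, *Ttn* did not pass without control replicate 1, 2 or 3 or *Notch2*tm1.1Ecan replicate 2, 3 or 4 (adjusted p up to 0.11), and the satellite cell gene *Pax7* had no count in any library. All 8 adipocyte genes rose, none past the cutoff, with a median of 0.76. *Fabp4*, the fatty acid-binding protein of adipocytes, had 65.3, 54.4, 66 and 60.2 CPM in control and 112, 106, 98.8 and 104 CPM in *Notch2*tm1.1Ecan libraries (log2 fold change 0.77 ± 0.063 (SE), adjusted p = 9.08e-09), and *Car3* (0.97, adjusted p = 1.47e-08), *Cd36* (0.88, adjusted p = 9.64e-06) and *Cfd* (0.82, adjusted p = 1.16e-05) rose farther; the list summed to 306 to 338 CPM in control and 528 to 554 CPM in *Notch2*tm1.1Ecan libraries. Of 15 genes of fibroblasts and perichondrium, 6 rose and 3 fell. *Postn*, periostin, had 249.6, 246, 249.9 and 282 CPM in control and 446, 514, 511 and 492 CPM in *Notch2*tm1.1Ecan libraries (log2 fold change 0.93 ± 0.056 (SE), adjusted p = 5.43e-11), *Thy1* (0.80, adjusted p = 7.69e-08) and *Dpt* (0.69, adjusted p = 1.56e-05) rose too, and *Dpp4*, a peptidase of fibroblast progenitors, had 10.5, 12.6, 11.6 and 10.7 CPM in control and 4.3, 5.09, 4.03 and 4.32 CPM in *Notch2*tm1.1Ecan libraries and fell (log2 fold change -1.35 ± 0.12 (SE), adjusted p = 4.26e-08). Their sum was 31642 to 34186 CPM in control and 36055 to 38914 CPM in *Notch2*tm1.1Ecan libraries. Among 6 tendon genes, *Tnmd*, tenomodulin, had 18.8, 18.8, 17.4 and 19.9 CPM in control and 37.3, 41.9, 42.9 and 40.4 CPM in *Notch2*tm1.1Ecan libraries and rose (log2 fold change 1.12 ± 0.072 (SE), adjusted p = 1.52e-10), *Fmod* fell (-0.53, adjusted p = 6.23e-08), and *Scx*, the defining transcription factor, was at -0.29, adjusted p = 0.141; the sum was 1489 to 1712 CPM in control and 1188 to 1233 CPM in *Notch2*tm1.1Ecan libraries. *Scx* fell as well without control replicate 4 (-0.38, adjusted p = 0.0404). Of 6 Schwann cell genes, *S100b*, which chondrocytes also make, fell (-0.62, adjusted p = 2.89e-07), and the sum went from 53.9 to 58.3 CPM to 34.6 to 40.2 CPM. T and NK cell genes other than *Cd4* and *Gzmb*, and mast cell genes other than *Kit* and *Cma2*, were under 10 counts. *Cd3e*, *Cd8a*, *Cpa3* and *Tpsb2* had none. *Cma2* had 0, 0, 0.0632 and 0 CPM in control and 0.614, 0.201, 0.102 and 0.36 CPM in *Notch2*tm1.1Ecan libraries and passed (adjusted p = 0.014), *Gzmb* passed too (2.60, adjusted p = 0.00398), both from levels near 0, and they lie in gene families whose near-identical copies can share reads. The part of these cell types in the other results was not tested.

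The 10 largest rises among protein-coding genes at or above 5 CPM that were also past the threshold without control replicate 4 include *Eln*, *C1qa*, *C1qc* and *Lgr5*, described above. *Slc5a7*, a choline transporter, had 1.56, 1.34, 2.02 and 1.81 CPM in control and 4.09, 5.29, 7.7 and 5.88 CPM in *Notch2*tm1.1Ecan libraries (log2 fold change 1.77 ± 0.20 (SE), adjusted p = 1.18e-06). *Dpep1*, a dipeptidase, had 5.69, 6.03, 5.05 and 5.15 CPM in control and 21.6, 16.3, 17.7 and 17.2 CPM in *Notch2*tm1.1Ecan libraries (log2 fold change 1.73 ± 0.11 (SE), adjusted p = 1.41e-10). *Mmp17*, a membrane-anchored metalloproteinase, was at 1.68, adjusted p = 9.07e-10, *Aoc3*, an amine oxidase of vessels and adipocytes, at 1.39, adjusted p = 1.36e-12, and *Gzme*, a granzyme with close copies whose reads may be shared, at 1.72, adjusted p = 1.44e-08. *Foxs1*, a forkhead factor, had 2.74, 1.79, 2.78 and 2.16 CPM in control and 6.96, 7.8, 7.44 and 6.51 CPM in *Notch2*tm1.1Ecan libraries (log2 fold change 1.58 ± 0.16 (SE), adjusted p = 2.11e-07). For none of these 10 did the groups overlap, as the rule requires. The 10 largest falls include *Angptl7*, *Cilp2*, *Dpp4*, *Grem1* and *Loxl4*. *Msln*, mesothelin, had 4.4, 4.92, 4.99 and 5.73 CPM in control and 2.52, 1.36, 1.48 and 1.73 CPM in *Notch2*tm1.1Ecan libraries (log2 fold change -1.52 ± 0.20 (SE), adjusted p = 7.35e-06), and *Entpd3*, which degrades extracellular ATP, had 7.84, 6.33, 7.33 and 6.43 CPM in control and 2.52, 2.47, 2.8 and 3.02 CPM in *Notch2*tm1.1Ecan libraries (log2 fold change -1.36 ± 0.15 (SE), adjusted p = 7.22e-07). *F13a1*, the A chain of coagulation factor XIII, was at -1.17, adjusted p = 1.07e-08, *Eef1a2*, a translation elongation factor, at -1.29, adjusted p = 1.22e-05, and *Slurp1*, a secreted relative of LY6 proteins, at -1.12, adjusted p = 7.59e-06.

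Proliferation genes rose slightly. Of 20, 14 rose and none fell, with a median of 0.27, and 12 rose without control replicate 4. *Aurkb*, a kinase of mitosis, was at 0.38, adjusted p = 9.17e-05, *Ccnb1* at 0.35, adjusted p = 0.000254, *Top2a* at 0.33, adjusted p = 0.00309 and *Cdc20* at 0.32, adjusted p = 0.00649. Genes of sterol synthesis rose by about as much, 11 of 16, with a median of 0.30 and 10 without control replicate 4. *Cyp51* was at 0.38, adjusted p = 0.000176, *Idi1* at 0.43, adjusted p = 0.0367 and *Fdps* at 0.69, adjusted p = 0.0289. *Idi1* did not pass without control replicate 1, 3 or 4 or *Notch2*tm1.1Ecan replicate 2, 3 or 4 (adjusted p up to 0.181), nor did *Fdps* without control replicate 1 or 2 or *Notch2*tm1.1Ecan replicate 2 or 4 (adjusted p up to 0.123). Of 12 immediate early genes, *Egr2* rose (0.59, adjusted p = 0.0237) but not without control replicate 2 or 3 or *Notch2*tm1.1Ecan replicate 3 (adjusted p up to 0.0841), and none fell. This 1 of 12 is near the 6.19% of all genes that rose. *Junb* rose as well without control replicate 4 (0.26, adjusted p = 0.00428), while *Fos* and *Jun* were at 0.04 and 0.08. Sex-linked genes were not level between groups of pooled pups. The Y-linked genes *Ddx3y* (0.46, adjusted p = 0.000953), *Eif2s3y* (0.68, adjusted p = 0.00107) and *Kdm5d* (0.28, adjusted p = 0.0457) were higher in *Notch2*tm1.1Ecan libraries, and *Eif2s3y* had 9.29, 9.53, 11.4 and 10.3 CPM in control and 11.4, 18.3, 17.2 and 17.3 CPM in *Notch2*tm1.1Ecan libraries. *Kdm5d* did not pass without control replicate 1, 2, 3 or 4 or *Notch2*tm1.1Ecan replicate 2, 3 or 4 (adjusted p up to 0.179). *Xist*, which is expressed from the inactive X chromosome, had 303, 290.2, 247 and 367 CPM in control and 146, 307, 275 and 277 CPM in *Notch2*tm1.1Ecan libraries and did not pass (log2 fold change -0.26 ± 0.25 (SE), adjusted p = 0.65). The part of the sex of the pups in the other results was not tested.

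The NF-κB and TNF response list is where control replicate 4 decided the result. With all 8 libraries, 1 of 30 genes rose and 1 fell, and the median log2 fold change was -0.60. *Cxcl10*, a chemokine, had 0.859, 0.372, 0.821 and 227 CPM in control and 0.546, 0.453, 1.94 and 0.405 CPM in *Notch2*tm1.1Ecan libraries, and its log2 fold change of -6.24 came with an adjusted p of 0.232. Without control replicate 4, 27 genes were tested, of which 6 rose and 2 fell, and the median was 0.10. In that fit, 5.78% of all genes rose and 4.59% fell. *Lcn2*, lipocalin 2, fell in both fits (-0.57 and -0.45), and *Csf1*, the growth factor of macrophages, rose in both (0.17 and 0.18), though it did not pass without control replicate 1, 2 or 3 (adjusted p up to 0.072).

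Over all genes, leaving out control replicate 4 gave 231 of 19089 genes past the threshold (1.21%), 189 higher (0.990%) and 42 lower (0.220%), and the biological coefficient of variation went from 9.69% to 6.56%. At the adjusted p alone, 1104 were higher (5.78%) and 876 lower (4.59%). A total of 184 genes were past the threshold in both fits in the same direction, which is 75.4% of the 244 and 79.7% of the 231, and none was past it in opposite directions. The 60 that were lost comprised 33 higher and 27 lower genes, and the 47 that were gained 36 higher and 11 lower. The 5 genes with the largest move show its nature. *Iigp1*, an interferon-induced GTPase, had 0.698, 0.745, 0.569 and 23.2 CPM in control and 1.43, 0.957, 2.4 and 1.22 CPM in *Notch2*tm1.1Ecan libraries. Its log2 fold change went from -2.11 to 1.12 (adjusted p from 0.477 to 0.0456). *Oasl2*, another interferon-induced gene, had 1.34, 1.04, 1.2 and 38.7 CPM in control and 3.28, 2.01, 3.16 and 2.18 CPM in *Notch2*tm1.1Ecan libraries and went from -2.04 to 1.09 (adjusted p from 0.481 to 0.00547). In both genes the direction turned. *Flt1*, a receptor for vascular endothelial growth factor, had 2.63, 2.16, 1.9 and 7.37 CPM in control and 8.32, 8.41, 6.32 and 6.66 CPM in *Notch2*tm1.1Ecan libraries and went from 1.06 to 1.69 (adjusted p from 0.237 to 2.51e-07). *Apod*, apolipoprotein D, went from 1.31 to 1.83 (adjusted p from 0.0673 to 7.78e-09), and *Fat3*, a protocadherin, from 0.81 to 1.20 (adjusted p from 0.105 to 0.000209). Of the 5 genes given as markers of the comparison, *Heyl* was at 3.18, *Eln* at 1.62, *Mylk* at 1.30, *Sfrp1* at 1.07 and *Angptl7* at -1.75. This fit shares all its libraries with the first and is no separate test of them.

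**Figure D4:**
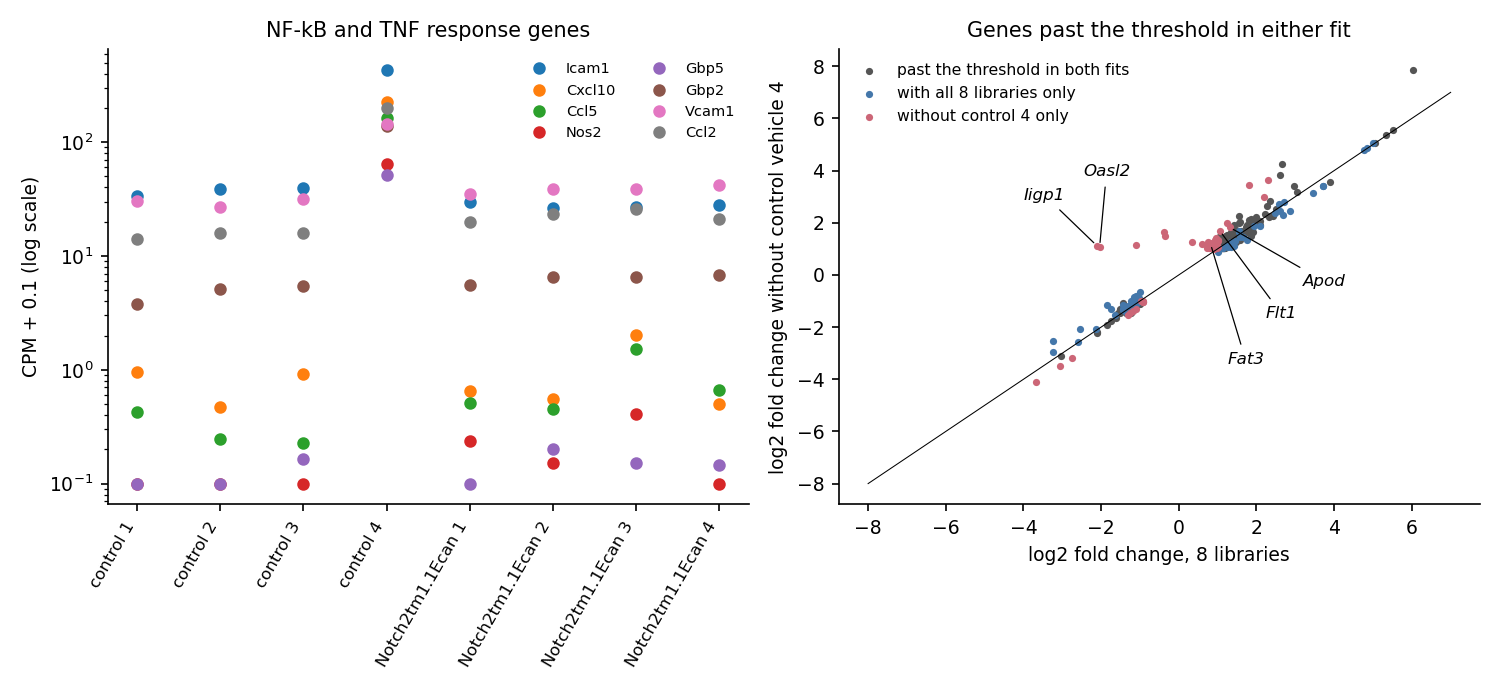
At the left, CPM plus 0.1 of 8 TNFα-induced genes in the 8 vehicle libraries on a log scale, where control replicate 4 stands above the other 7 libraries, as for *Icam1* at 431 CPM against 26.4 to 39.7 CPM. At the right, the log2 fold change with all 8 libraries against that without control replicate 4 for the genes past the threshold in either fit, 184 of them in both, with the line of equal values; *Iigp1* and *Oasl2* change sign.

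The TNFα-treated libraries were a second set of libraries of the same genotypes, and no vehicle library enters their fit. Whether they came from the same cultures as the vehicle libraries is not given in the labels, so recurrence in them may not be independent. They held 12552727 to 19220459 counts on genes in control and 3439726 to 17155897 in *Notch2*tm1.1Ecan cells. The lowest was *Notch2*tm1.1Ecan TNFα replicate 4, far below the others, which limits what can be seen there for genes at low levels. The TNFα set includes the TNFα-treated control replicate 4, which lay at 83.8% of the way from vehicle to TNFα as given above. Whether material passed between it and vehicle control replicate 4 was not tested. There, 272 of 19227 genes were past the threshold (1.41%), 1.02% of genes higher and 0.395% lower, and 9.94% had an adjusted p under 0.05, 5.63% higher and 4.31% lower. Of the 244 genes past it with vehicle, 87 were past it again in the same direction with TNFα, which is 35.7% of the 244 and 32.0% of the 272. They were 93 without vehicle control replicate 4, 85 without TNFα-treated control replicate 4 and 88 without *Notch2*tm1.1Ecan TNFα replicate 4. Of the 186 higher genes, 179 could be tested, 168 had the same sign and 109 had an adjusted p under 0.05 in the same direction, and their median log2 fold change was 1.30 with vehicle and 1.00 with TNFα. Of the 58 lower genes, 56 could be tested, 48 had the same sign, 22 passed the adjusted p in the same direction and 1 in the opposite one, with medians of -1.29 and -0.68. The genes were chosen by their change with vehicle, which favors larger values there. These medians therefore do not show that the genotype difference was smaller with TNFα. With TNFα, *Heyl* was at 2.46 (adjusted p = 0.000144), *Eln* at 1.44 (adjusted p = 4.28e-08), *Mylk* at 0.69 (adjusted p = 1.55e-06), *Sfrp1* at 0.93 (adjusted p = 3.69e-11) and *Angptl7* at -1.97 (adjusted p = 6.84e-14). *Notch2* was at 0.53 (adjusted p = 0.0178), and *Notch3* at 0.87.

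Whether the genotype difference was unequal with and without TNFα was tested as an interaction over all 16 libraries. It passed for 101 of 21321 genes (0.474%), and for 5 of the 244 genes past the threshold with vehicle. The vehicle libraries that chose the 244 genes also enter this test, so the count of 5 is not independent of that choice. These 5 became 8 without vehicle control replicate 4, 3 without TNFα-treated control replicate 4 and 3 without the shallow *Notch2*tm1.1Ecan TNFα replicate 4. *Mylk* had 27.3, 23.8, 22.7 and 30.1 CPM in control and 41.7, 45.5, 40.7 and 38.3 CPM in *Notch2*tm1.1Ecan TNFα libraries. Its rise was smaller with TNFα (interaction -0.60 ± 0.10 (SE), adjusted p = 0.00152). *Cnn1*, calponin, followed (-0.68 ± 0.15 (SE), adjusted p = 0.0305), with log2 fold changes of 1.01 with vehicle and 0.32 with TNFα, and so did *Lurap1l* (-0.78 ± 0.094 (SE), adjusted p = 3.76e-06) and *Foxs1* (-0.86 ± 0.20 (SE), adjusted p = 0.0391). *Gas7* was lower in *Notch2*tm1.1Ecan cells with vehicle (-1.16) and higher with TNFα (0.31; interaction 1.46 ± 0.29 (SE), adjusted p = 0.0451), and it was at -0.83 with vehicle without control replicate 4. *Tgfb3*, not past the threshold, was at 0.87 with vehicle and -0.02 with TNFα (interaction -0.90 ± 0.18 (SE), adjusted p = 0.0445). For the other genes past the threshold, a difference between the treatments was not detected, which does not show that they were equal.

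**Figure D5:**
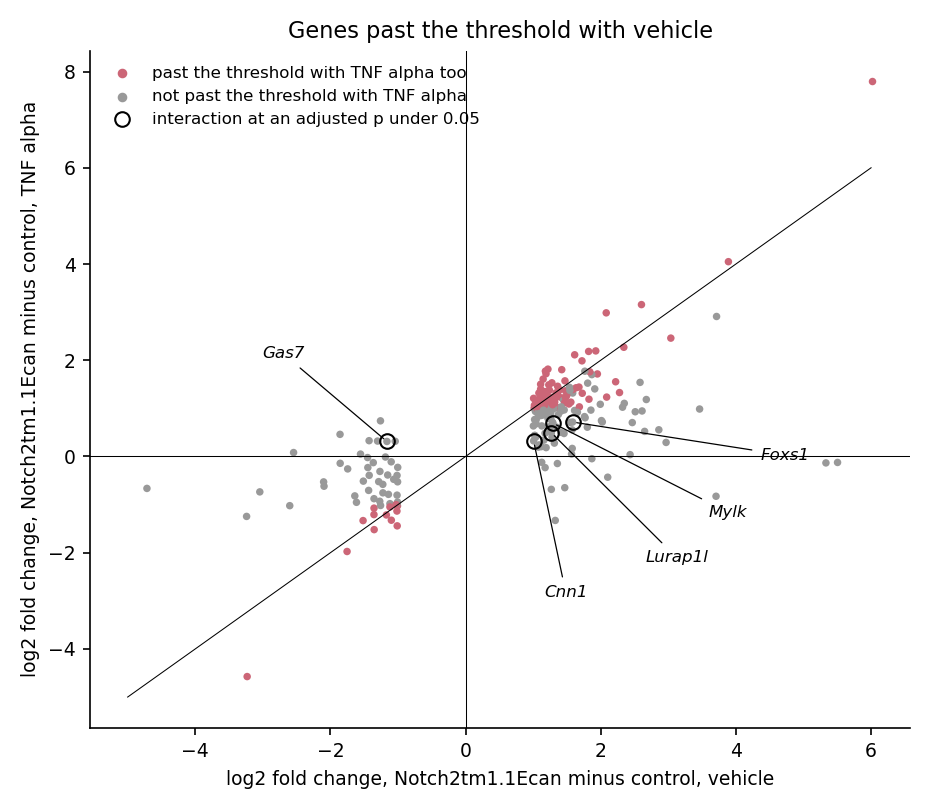
Log2 fold changes of *Notch2*tm1.1Ecan over control with vehicle and with TNFα for the genes past the threshold with vehicle that could be tested in both, red where they were past it with TNFα too (87 genes), with the line of equal values and rings on the 5 genes whose interaction passed. Most points above 0 with vehicle are above 0 with TNFα, 168 of 179.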

How the data were processed

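The authors deposited 1 table of counts per library, whole-number read counts for 55414 Ensembl gene identifiers made with htseq-count, and 5 entries that name no gene and held 8.81 to 12.1% of the fragments, left out here. The study's methods give HISAT2 mapping to GRCm39, whereas the submitters' processing notes list GRCm38 and HISAT2 2.1.0; the strand setting of the counting is not given in the sources used here, so genes that overlap an antisense gene are uncertain. Names and positions are from GENCODE M39 on GRCm39, in which 665 identifiers with 0.018% of the counts were not found.

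Libraries were grouped by genotype and treatment as labeled. Genes with at least 10 counts over the compared libraries were kept, scaled with TMM and tested with edgeR 4.0.16 (robust quasi-likelihood) in R 4.3.3 with Benjamini-Hochberg adjustment, over 8 libraries, or 16 for the interaction; SEs are the log2 fold change divided by the root of F. Python 3.11.15 with pandas 2.3.3 and matplotlib 3.10.9 served for tables and plots. The pipeline was tested on simulated data. Intervals of detection (3 counts) cover counting error only. As alternatives, each library was left out in turn, the test was DESeq2 1.42.0, scaling was by RLE, the filter was filterByExpr or 1 count, the threshold was 0.1 or without a fold, and the fit took 16 libraries, a block for replicate number or 1 surrogate variable (sva 3.50.0).

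Named genes are *Notch2*, the 5 given markers, the 10 largest rises and falls (protein coding, past the threshold with and without control replicate 4, no overlap, at least 5 CPM in the higher group), up to 4 members per list by size of change (adjusted p under 0.05, at least 1 CPM), all Notch receptors, ligands and targets, and the 5 genes at or above 5 CPM that move most without control replicate 4. Some items under this rule are not reported here. Other list members named were chosen after their values were seen. The comparison, the members and the lists were chosen with earlier results of these data known.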

Additional observations from a re-analysis of the deposited data

Results flagged for a closer look

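Among 119 genes in 2 groups of 4 vehicle libraries, 25 values stood apart by Dixon's criterion (the gap to the nearest other library over the range), where chance flags about 1 in 20 of 238 groups, and 13 of the 25 were in control replicate 4. The 119 were the genes named by the rule and *Lurap1l*, *Cnn1* and *Gas7*, which were added because their interaction passed. Of the 119 genes, 5 were named because they moved most without control replicate 4, so their values there were fixed by that choice. The other genes gave 20 such values in 228 groups, 8 of them in control replicate 4. These 8 include *Gas7*, whose choice was not free of that library. It was past the threshold with vehicle only with control replicate 4 (-1.16, or -0.83 without it). In that library *Iigp1* was at 23.2 CPM, *Oasl2* at 38.7 CPM, *Lcn2* at 37.7 CPM, *Cilp2* at 68.5 CPM, *Flt1* at 7.37 CPM, *Apod* at 7.08 CPM, *Fat3* at 4.91 CPM, *Gas7* at 13.9 CPM, *Postn* at 282 CPM and *Ddx3y* at 28.5 CPM, each above the other control libraries. In the same library *Myl9* at 157 CPM, *Fgfr3* at 279.7 CPM and *Thy1* at 60.8 CPM were below the other control libraries. The remaining values in control libraries were *Dkk2* at 10.5 CPM in replicate 1 and, in replicate 2, *Grem1* at 175 CPM and *Epyc* at 6.55 CPM.

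In *Notch2*tm1.1Ecan libraries, *Rbpj* at 148 CPM, *Eif2s3y* at 11.4 CPM and *Ddx3y* at 28.0 CPM in replicate 1 were below the other 3. In replicate 2, *Wnt10b* at 2.97 CPM and *Ibsp* at 3.37 CPM were below the others and *Adamts1* at 272 CPM above them. In replicate 3, *Fdps* at 2.80 CPM was below and *Dll1* at 1.43 CPM above the others, and in replicate 4, *Ms4a7* at 1.64 CPM was below them.

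The genotype difference was unequal with vehicle and with TNFα, by the test of the interaction, for *Mylk* (-0.60 on the log2 scale), *Foxs1* (-0.86), *Lurap1l* (-0.78), *Cnn1* (-0.68), *Tgfb3* (-0.90) and *Gas7* (1.46).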

How the results depend on the processing

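The 244 genes past the threshold became 211 with DESeq2, 243 with RLE scaling, 200 with filterByExpr and 264 with 1 surrogate variable, and 198 to 258 with each library left out in turn; 2048 passed with no fold cutoff. Those higher were 148 to 202 with a library left out and 1203 with no fold cutoff. Those lower moved more: 99 with no filter beyond 1 count, 98 at an adjusted p under 0.1, 845 with no fold cutoff, 35 to 56 with a library left out, 35 without *Notch2*tm1.1Ecan replicate 3, and 35 with DESeq2 without control replicate 4, an alternative chosen after seeing the data. The interaction count of 5 was 2 to 8 with a library left out, 8 without control replicate 1 or 4 and 2 without *Notch2*tm1.1Ecan TNFα replicate 1 or 2.

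Same-numbered vehicle libraries of control and *Notch2*tm1.1Ecan cells did not deviate together (correlations -0.07 to 0.01). These few pairs do not show whether same-numbered libraries shared a culture or handling, and they do not compare vehicle with TNFα. With the replicate number as a block, 239 genes were past the threshold, 90 recurred with TNFα and the interaction passed for 3. No library correlated best with its own number, and *Notch2* passed with the block (adjusted p = 0.00923, or 0.0158 without control replicate 4). Without control replicate 4 the block gave 205, also chosen after seeing the data.

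The sign turned for *Iigp1* (0.84) and *Oasl2* (0.80) with 1 surrogate variable, for *Iigp1* (1.14) and *Oasl2* (1.11) with DESeq2 without control replicate 4, and for both (1.20 and 1.22) with the block without it; with a library left out they ran from -2.50 to 1.12 and from -2.42 to 1.09. *Notch4*, near 0, turned with filterByExpr (-0.00211), 1 surrogate variable (-0.039) and DESeq2 without control replicate 4 (-0.049), and ran from -0.13 to 0.23 with a library left out. *Jag2* turned with 1 surrogate variable (0.32), and without control replicate 4 with the block (0.37) and with DESeq2 (0.39), and ran from -0.27 to 0.39 with a library left out. The cause of these moves was not tested. Named gene values under the alternatives were compared with the main fit by direction and by an adjusted p under 0.05, without the fold. Of these values, 1827 kept both, 84 no longer had an adjusted p under 0.05, 25 newly had one and 20 turned direction. *Hes1* no longer had one with all 16 libraries fitted (adjusted p = 0.0598), nor did *Kdm5d* under most alternatives. Genes near 0.1 CPM rest on a few counts at these depths.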
